A study of Mus musculus with 35 samples.

Results

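Long RNA of round spermatids, the haploid cells that follow the second meiotic division, was compared between Smg6-cKO and control testes in 6 of the 35 samples of the study, 3 of each genotype. All 6 libraries of round spermatid mRNA were used, with raw counts per gene. Of 24411 gene rows, 17492 had at least 10 counts in at least 3 libraries and were tested. The study examined how the NMD endonuclease SMG6 shapes the RNA of male germ cells, in spermatocytes, round spermatids and isolated chromatoid bodies, and only the round spermatids are described here. The cKO mice were Smg6(fx/fx);Ngn3Cre+, in which Cre driven by the Neurogenin 3 promoter removes exon 9 of Smg6 in early postnatal spermatogonia. Controls were Cre-negative littermates, Smg6(fx/wt) or Smg6(fx/fx), which carried floxed Smg6 alleles as well, so the Cre transgene itself was present in the cKO alone. All mice were adults of a mixed C57Bl/6J and SV129 background. Cells were separated on a BSA gradient by sedimentation velocity, an enrichment and not a sort, and the series text and the study's methods differ on how many testes entered each sample.

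NMD is a translation-dependent decay pathway that removes mRNAs whose stop codon lies in a context read as premature, such as upstream of an exon junction or before a long 3'UTR. The helicase UPF1 marks such mRNAs, the kinase SMG1 phosphorylates it, and SMG6 is recruited and cuts the RNA near the stop codon, while SMG5 leads to decay from the RNA ends. Round spermatids transcribe actively until their chromatin is compacted, and they store many mRNAs for the acrosome, the flagellum and the nuclear protamines that are translated only later, when the cell elongates.

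The libraries held 40237647 to 45391308 counts on genes, and within a genotype they ranked the genes alike, with Spearman correlations of 0.9753 to 0.9911 across genes. In this text a gene rose or fell if its adjusted p, from edgeR's quasi-likelihood test, was at most 0.05, and it was called if the log2 fold change, cKO over control, was also at least 1.5 in size. Of the genes tested, 38.4% rose and 34.3% fell. Of the genes tested 14.8% were called higher and 11.6% called lower (2597 and 2021; 4989 and 1082 if libraries were scaled by their totals alone), and the values of the genotypes did not overlap for 76.9% of the genes tested, so a count of changed members is to be read against these shares. In the controls 27.0% to 29.6% of all gene counts lay on the genes called lower, against 7.70% to 8.79% in the cKO. The scaling mattered: the median log2 fold change was 0.11 with TMM and 0.73 when libraries were scaled by their totals alone, a shift of 0.62. Directions are given relative to TMM, and counts under library totals are given beside them where a group turned. Smg6 itself (chromosome 11 from 74925823 to 75164448, GRCm38) had normalized counts of 7568, 8096 and 7779 in the cKO and 8596, 5675 and 9298 in the controls, which overlapped (log2 fold change -0.01, SE 0.16, adjusted p = 0.97; -0.20 without control replicate 2, adjusted p = 0.041). Under library totals Smg6 stood at 0.62 and passed edgeR's test (adjusted p = 0.0038). A count over the whole gene does not check the deletion of a single exon. Of 2 genes often used as references, Ppia did not pass the test (-0.08; 0.54 under library totals), and Rpl19 fell by 0.54 with TMM and stood at 0.08 under library totals.

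The labelled cell type was checked against marker genes. The 12 round spermatid markers, among them the kinases Tssk1 and Tssk2 and the acrosomal Acrv1, were abundant in all libraries and together took 0.600% to 0.620% of gene counts in the controls and 0.203% to 0.237% in the cKO. All 12 fell, 9 of them past the fold threshold, with a median of -1.86, and under library totals 10 fell, 4 of them past it. Genes that mark spermatocytes took 1.09% to 1.13% in the controls and 0.996% to 1.04% in the cKO. Of those 15 genes 8 fell and 4 rose, while under library totals 9 rose and 5 fell. H1fnt (-3.37) and Pgk2 (-1.96), both expressed in spermatids too, fell most. Hspa2 (-0.44) stood at 0.17 under library totals, and the synaptonemal Sycp3 rose from 1749 ± 147 to 2983 ± 144 normalized counts (mean ± SD, n = 3 each). In bulk samples of this kind fewer cells of a type, or of an advanced step of that type, and less RNA per cell cannot be told apart.

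Genes of somatic testis cells formed a small part of every library, and macrophage, Leydig, Sertoli and erythroid genes were higher in the cKO in most cases. Of 14 macrophage genes 13 rose, with summed shares of gene counts of 0.0524%, 0.0327% and 0.0669% in the cKO libraries and 0.00479%, 0.00960% and 0.0104% in the controls. Of 9 tested Leydig cell genes 8 rose and the widely expressed Scarb1 fell (-1.501), with summed shares of 0.0163%, 0.00911% and 0.0462% in the cKO libraries and 0.00900%, 0.0101% and 0.00882% in the controls, so that in the sum cKO replicate 3 stood apart and replicate 2 lay within the control range. Gene by gene, the values of the genotypes did not overlap in any of the 9, beside 76.9% of all genes tested. The Sertoli cell list had 11 of 12 tested genes higher, and the count depended on single libraries: it was 5 without cKO replicate 3 or control replicate 1, 6 without cKO replicate 1 or control replicate 2, 7 without control replicate 3, and 7 with the replicate number as a block. The list's median of 1.31 became 0.86 without cKO replicate 3. Its summed counts took shares of 0.0114% to 0.0338% in the cKO and 0.00502% to 0.00630% in the controls. The erythroid list had 5 of 6 higher, with 0.0101% to 0.0413% against 0.00219% to 0.00250%, although the rows of its 2 alpha globin genes are identical, as are those of its 2 beta globin genes. Peritubular myoid (3 higher and 2 lower of 8) and endothelial genes (0 higher and 1 lower of 6; 3 and 1 under library totals) had medians of 0.11 and -0.35 (0.73 and 0.26 under library totals), and their summed shares were lower in the cKO, with 0.00922% to 0.00977% against 0.0300% to 0.0349% for myoid genes and 0.00119% to 0.00136% against 0.00186% to 0.00282% for endothelial genes. In these lists the fallen Actg2 (-3.13; 17008 normalized counts in the controls) and Vwf (-2.64) were the members with the most counts. T and NK cell genes took 0.000649% to 0.00216% and 0.000725% to 0.00145%, and 4 of 6 rose and 2 fell. Here too the genotypes did not overlap in any of the 6 genes, although the summed shares did. With 3 libraries against 3 an exact permutation test of a summed share cannot go below p = 0.10, the value reached by the macrophage, Sertoli and erythroid lists, higher in the cKO, and by the myoid and endothelial lists, lower in the cKO, and it gave 0.200 for Leydig cell genes and 0.900 for T and NK cell genes. The Leydig, macrophage and Sertoli shares had the same order among the cKO libraries, highest in replicate 3 and lowest in replicate 2. Of the 2597 genes called higher 1291 had that order too (49.7%), as did 150 of the 2021 called lower. The share with that order over all genes tested was not taken, so these counts have no baseline here. The part of somatic cells in these genes was not tested.

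The largest falls in absolute counts were those of the nuclear proteins Prm2, Prm1 and Tnp2, the outer dense fiber protein Odf2, the anchoring proteins Akap12 and Akap4, the hexokinase Hk1 and the germ cell gene Gsg1. Odf2, with 87769.9, 97654 and 99827 in the cKO and 297366, 271571 and 322977 in the controls, was the second most abundant of these and fell by the least (-1.64, SE 0.08). Hk1, whose testis form is held on the fibrous sheath, had 21708, 25547 and 24402 in the cKO and 158635, 154484 and 174065 in the controls, and Gsg1 had 13716, 15881 and 13034 in the cKO and 138336, 131540.2 and 151739 in the controls. For all of these the highest cKO library lay far below the lowest control. Among genes called higher, the largest rises in absolute counts were those of Abcc12 and Abca17, both ABC transporters, the splicing regulator Hnrnpll, the O-mannosyltransferase Pomt1, the ankyrin repeat gene Ankrd54, the transport receptor Ranbp17, the lncRNA Gm16973 and Srrt, a partner of the nuclear cap-binding complex. Abcc12 (chromosome 8 from 86482260 to 86580686) had 42574, 51068 and 49872 in the cKO and 7639.5, 8064 and 7805 in the controls (log2 fold change 2.61, SE 0.08, adjusted p = 2.3e-07). Hnrnpll (chromosome 17 from 80029487 to 80062334) had 33078, 36758 and 37265 in the cKO and 5150.4, 4966 and 5144 in the controls (log2 fold change 2.81, SE 0.07, adjusted p = 1.3e-07). Pomt1, at 12678, 12771 and 11727 in the controls, reached 36799, 37883 and 38106 in the cKO (1.601), and Srrt rose by 2.10. In Abcc12, Hnrnpll and Pomt1 every cKO library lay above every control library. Of other genes the study followed, Lpxn (2.57) and Zfp41 (1.76) rose and Fkbpl (-1.52) fell.

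**Figure D1:**
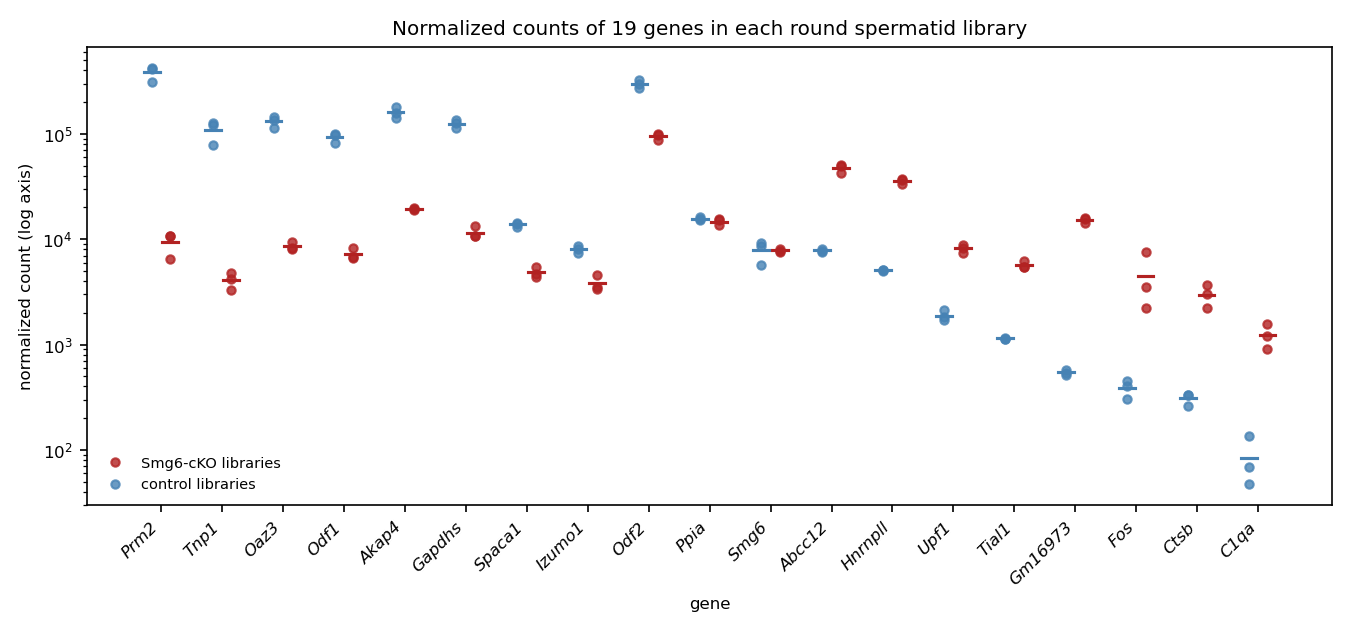
Normalized counts (log axis) of 19 genes in the 3 Smg6-cKO and 3 control round spermatid libraries, with a point for each library and a bar for the group mean. Prm2 lies at 6482 to 10787 in the cKO and at 313992 to 423543 in the controls, Smg6 and Ppia overlap, and Hnrnpll, Upf1 and Tial1 rise with little spread while Fos, Ctsb and C1qa spread more among the cKO libraries.

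By log2 fold change, the 12 highest called genes with a mean of at least 100 normalized counts held 3 rows without an annotated protein and 9 coding genes. Beside Snhg12 and Gm16973 they were Tlr2 (4.76), a receptor for bacterial lipoproteins, Cd74 (4.34), the invariant chain of MHC class II, Ifitm2 (4.33), an interferon-induced membrane protein, Lcn2 (4.70), a secreted lipocalin, the acute phase inhibitor Serpina3n (5.02; 4.25 without cKO replicate 3 and 7.23 without control replicate 3), the methyltransferase Bhmt (4.69), Tmem176a (4.45; 3.48 without cKO replicate 3), and the Leydig cell genes Insl3 (4.40) and Hsd3b1 (4.28). The row named Mir5107 (4.58) held poly(A) RNA counts over a miRNA gene and not the mature miRNA. Mir5107 (chromosome 18 from 60812076 to 60812163) lies within Cd74 (60803848 to 60812652) on the same strand. Its counts cannot be told apart from reads of Cd74, so the 2 rows are not separate observations. Lcn2 had 757, 471 and 5466 in the cKO and 93.2, 106 and 57.3 in the controls, and Bhmt had 365, 155 and 2872 in the cKO and 46.0, 52.4 and 32.6 in the controls. In both, as in Insl3 and Hsd3b1, cKO replicate 3 was the highest library by far, the library with the largest Leydig cell share. Without it the log2 fold changes were 2.84 for Lcn2, 2.57 for Bhmt, 2.91 for Insl3, 3.08 for Hsd3b1 and 3.91 for Mir5107, and Hsd3b1 had 5.31 without control replicate 1. Tlr2 had 196, 283 and 276 in the cKO and 7.08, 11.5 and 9.12 in the controls, a rise seen in each cKO library. The 12 lowest included Car2 (-5.26), a carbonic anhydrase, Tppp2 (-5.15), a tubulin-binding protein, Bpifa3 (-5.16) and Ttc24 (-5.19) and the protamine Prm2, with Tmod4 (-6.10; -6.71 without cKO replicate 3), Gm13539 (-5.37), 1700012A03Rik (-5.55), 1700009J07Rik (-5.54), 4933433H22Rik (-5.12; -5.71 without cKO replicate 3), 1700008P02Rik (-5.11) and 1700047L14Rik (-5.09). Car2 had 321, 236 and 314 in the cKO and 11675, 9584 and 12131 in the controls, and Tppp2 had 327, 364 and 453 in the cKO and 14449, 11390.1 and 14748 in the controls.

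The genes that repackage the sperm nucleus had the lowest median of all lists. Protamines replace the transition proteins, which replace histones, on the DNA of elongating spermatids. All 5 members fell past the fold threshold, with a median of -4.73: Prm2 (-5.36), Prm1 (-5.06), Tnp1 (-4.73), Tnp2 (-4.47) and Prm3 (-4.11). Tnp1 had 4222, 3329 and 4781 in the cKO and 122010.3, 78152 and 126554 in the controls, and Prm3 had 468, 703 and 538 in the cKO and 10432, 8295 and 10804 in the controls. Prm1, Prm2, Prm3 and Tnp2 lie next to each other on chromosome 16, between 10787936 and 10805839 (GRCm38), while Tnp1 is on chromosome 1. Among the 16 other genes of histone replacement 9 fell and 6 rose (7 and 6 under library totals), with a median of -0.67. The spermatid histone variants H2afb1 (-4.06), H1fnt (-3.37) and Hils1 (-2.52) and the kinase Tssk6 (-4.75) fell, as did Cdyl (-2.80) and Chd5 (-1.91), readers and remodelers of spermatid chromatin. The proteasome activator Psme4, the member with the most counts, fell by 0.71 with TMM and stood at -0.09 under library totals. Members that went the other way included Kat5 (1.68), the catalytic subunit of the NuA4 acetyltransferase, Pygo2 (0.89), Kdm3a (0.56) and Ep400 (0.33), of which Ep400 belongs to the same complex as Kat5. Kat5 had 11202, 11429.8 and 11611 in the cKO and 3535, 3696 and 3474 in the controls. All 6 testis-specific serine kinases fell past the threshold, from Tssk6 (-4.75) over Tssk2 (-2.75), Tssk3 (-1.99), Tssk5 (-1.92) and Tssk1 (-1.83) to Tssk4 (-1.56), and under library totals all 6 fell but 2 passed the fold threshold.

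Genes of the acrosome, the vesicle that covers the sperm head, fell in 20 of 24 cases (13 under library totals), 12 of them past the fold threshold (5 under library totals, where 6 rose), with a median of -1.48. Among the largest falls were those of the proteases Prss55 (-3.34) and Prss37 (-2.87) and of the acrosomal membrane protein Eqtn (-2.66), with 1223, 1709.7 and 1183 in the cKO and 9075, 8719 and 8203 in the controls. Acrbp, the proacrosin-binding protein and the most abundant member, had 19679.7, 22579 and 19675 in the cKO and 31170.3, 30173 and 28362 in the controls and fell by 0.53, while under library totals it stood at 0.08. Acr, which encodes proacrosin, and Spink2, its inhibitor, fell by 0.67 and 0.58, and they stood at -0.05 and 0.04 under library totals. The members that rose were Gopc (0.99), Pick1 (0.54) and Dpy19l2 (0.34), which act in vesicle transport to the acrosome and in its attachment to the nucleus. Of 26 genes for binding and fusing with the egg 21 fell and 1 rose (18 and 6 under library totals), with a median of -1.61. Izumo1, the sperm ligand of the egg receptor JUNO, fell by 1.07, and its paralogs Izumo2 (-1.99) and Izumo3 (-1.98) fell further, whereas Izumo4 (-0.04) did not pass the test (0.58 under library totals). Among the ADAM surface proteins Adam1a (-2.83) had the largest fall and Adam2 (-0.02) did not pass the test (0.60 under library totals), and the most abundant member Adam3 fell by 0.31 with TMM and stood at 0.31 under library totals. The angiotensin-converting enzyme Ace, whose short testis form is made in spermatids, fell by 2.73. The chaperones of sperm surface proteins split: Calr3 (-2.47) and Pdilt (-1.71) fell and Clgn (-0.19) did not pass the test. Clgn passed it without control replicate 3 (-0.24, adjusted p = 0.0499) and stood at 0.43 under library totals. Tex101, a surface protein made earlier in germ cells, was the member that rose (0.76; 0.64 without cKO replicate 1, adjusted p = 0.081).

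Sheath and outer dense fiber genes of the flagellum changed as a block. Of 24 members 23 fell, 18 of them past the fold threshold, with a median of -2.07, and under library totals 21 fell, 12 of them past it. Odf1 had 6696, 8307 and 6847 in the cKO and 99816, 81923 and 97636 in the controls, and Oaz3, the antizyme of spermatids, had 8033, 9329.6 and 8234 in the cKO and 136382, 113509 and 143847 in the controls. The largest fall was that of Spem1 (-4.88), followed by Odf3b (-4.18), Spata3 (-4.07) and Spata18 (-3.99), and the sheath proteins Akap4 (-3.05) and Akap3 (-2.17) fell too. The member that rose was Odf4 (0.35). The axoneme did not follow. Of 39 dynein, radial spoke and tektin genes 15 fell and 13 rose, and under library totals 24 rose and 9 fell, with a median of -0.06. All 5 tektins, the filaments of the doublet microtubules, fell, from Tekt5 (-1.998) and Tekt2 (-1.37) to Tekt4 (-0.89). Most tested heavy chains of axonemal dynein rose, with Dnah2 (1.40), Dnah8 (0.98) and Dnah17 (0.87) ahead, as did Cfap46 (1.66) of the central apparatus. Dnah8, the most abundant member, had 150546, 67903 and 140445 in the cKO and 50083, 81617 and 50311 in the controls. Its groups overlapped through replicate 2 of each, and its adjusted p rose to 0.079 without cKO replicate 1, 0.068 without control replicate 1 and 0.067 without control replicate 3, with log2 fold changes of 0.80, 0.86 and 0.86, and to 0.064 with the replicate number as a block (0.95). Dnah11 (-3.27), Dnah5 (-1.02) and Dnah9 (-0.89) fell with TMM, but Dnah5 (-0.40) and Dnah9 (-0.27) did not pass the test under library totals. Dnah11 was at 58.1, 43.7 and 30.7 in the cKO and 93.2, 88.1 and 1099.9 in the controls. Its count in control replicate 3 stood apart: without control replicate 3 the log2 fold change was -1.04 (adjusted p = 0.035), while the adjusted p was 0.053 without cKO replicate 1 (-3.49) and 0.088 with the replicate number as a block (-2.19). Intraflagellar transport genes had a median of -0.14, with 12 of 27 lower and 5 higher and, under library totals, 4 lower and 19 higher. The called member was Kif17 (-2.12; 6815, 9262 and 8042 in the cKO and 34210.3, 30406 and 39996 in the controls), the kinesin that carries the coactivator FHL5 in spermatids, and Fhl5 itself fell by 2.84.

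Ion transport genes moved both ways, and most energy genes fell. Of 20 CatSper and transport genes 11 fell and 9 rose (6 and 10 under library totals). The sodium pump of sperm, Atp1a4, fell by 3.20 from the highest level of the list, 57055 normalized counts in the controls. Of the pore subunits of the CatSper calcium channel Catsper3 (-2.14) and Catsper1 (-1.35) fell further than Catsper4 (-0.48), which turned under library totals (0.13) and missed the threshold without cKO replicate 1 (-0.42, adjusted p = 0.059). The auxiliary subunits Catsperg2 (0.91), Catsperb (0.89), Catsperg1 (0.77) and Catsperd (0.63) rose. The largest rises were those of Hvcn1 (3.30; 4.098 without control replicate 1) and Pkd2l1 (2.69), a proton and a cation channel with few counts in the controls (8.93 and 197). Of 24 energy genes 21 fell and 2 rose (15 and 7 under library totals), with a median of -0.97. The sheath-bound glycolytic enzymes Gapdhs (-3.43), Hk1 (-2.77), Aldoart1 (-2.67) and Pgk2 (-1.96) fell past the threshold, and Ldhc, the testis lactate dehydrogenase and the most abundant member, had 91198, 103001 and 99889 in the cKO and 192626, 172466 and 187464 in the controls (-0.91). The glucose transporter Slc2a3 (1.25) and the ADP/ATP carrier Slc25a31 (0.58) rose.

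Genes that regulate spermiogenesis had medians smaller in size than those of the protamine, acrosome, fusion and sheath lists. They were larger in size than those of the axonemal, intraflagellar transport and CatSper lists. Of 22 transcription regulators of spermiogenesis 13 fell and 3 rose (10 and 8 under library totals), with a median of -0.66. Crem, the activator bound to cAMP response elements in many postmeiotic promoters, had 7428, 8198 and 7354 in the cKO and 16751, 16775 and 16545 in the controls (-1.12). Fhl5 (-2.84), Hsfy2 (-2.01) and Sox5 (-1.94) passed the fold threshold, and Sox30 (-1.39), Nr6a1 (-1.14) and Gtf2a1l (-0.96) fell without passing it. Rfx2, a regulator of cilium genes, fell by 0.64 with TMM and stood at -0.02 under library totals. Ovol1 (0.93) and Mybl1 (0.67), of which Mybl1 acts in pachytene spermatocytes, rose, and the most abundant member was Morf4l1 (-0.76). Of 28 RNA-binding proteins that store or translate spermatid mRNA 20 fell and 8 rose, but under library totals 10 rose and 6 fell. Samd4 (-2.78), Eif4e (-1.59) and Paip2 (-1.57) fell past the threshold, and Cpeb1 (1.58) rose past it. Pabpc1, the most abundant member, fell by 0.57 with TMM and stood at 0.05 under library totals. Of 15 multicopy and sex-linked spermatid genes 10 fell, among them the 6 Cypt genes of the list, and 2 rose. Their counts are uncertain because near-identical copies share reads. The largest fall was that of 1700012L04Rik (-2.98). The Y-linked zinc finger gene Zfy2 fell by 0.54 with TMM and stood at 0.08 under library totals, and Magea5 (1.28) had the largest rise. Over all spermiogenesis lists together, 184 of 274 genes fell and 53 rose, 31.8% were called lower and 2.19% higher, and 127 fell under both scalings.

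**Figure D2:**
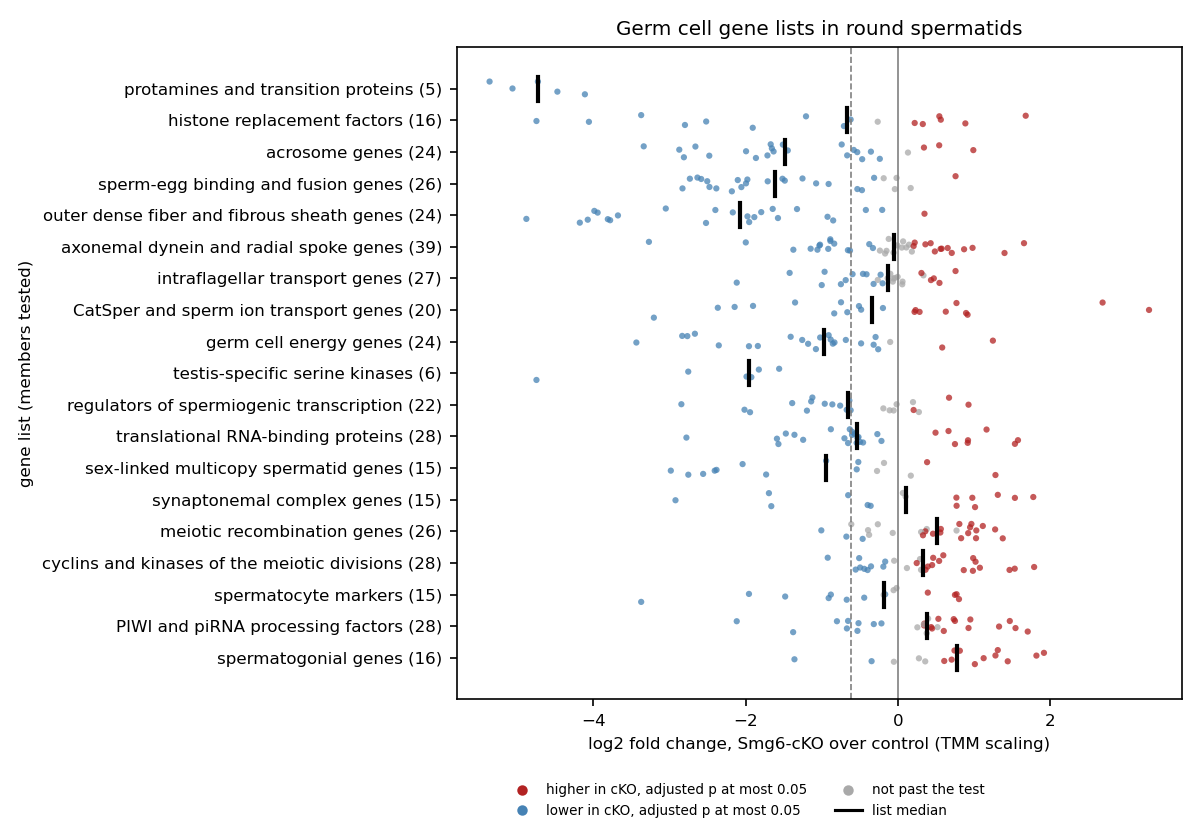
Log2 fold changes (Smg6-cKO over control, TMM) of the members of the spermiogenesis and meiosis lists, each point a gene, coloured by direction where the adjusted p was at most 0.05, with a black bar at each list's median. The solid line marks 0 and the dashed line the position of 0 under library totals. The protamine list lies at -4.73 and the sheath list at -2.07, while the axonemal (-0.06) and synaptonemal (0.10) lists straddle 0.

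CREM binds the cAMP response element (CRE), so the promoters were searched for its full palindrome TGACGTCA, which reads the same on both strands. RefSeq promoters (GRCm38.p6, from 250 bases before to 50 after a start) were matched for 13510 tested genes, and 3.19% of them held it in a promoter, as did 2.03% of all 27025 genes with a promoter of that length. The share was 2.97% among genes called lower, 2.28% among genes called higher and 3.41% among the rest, so the palindrome was no more frequent in the called genes. The 431 genes with it had a median log2 fold change of -0.19 and the others one of 0.12. None of the promoters of Prm1, Prm2, Tnp1 and Tnp2 held these letters in the window. Of the spermiogenesis lists, 5 genes with a match are shown, chosen after their values were seen to include members that fell and 1 that rose, with the match in capitals, 5' to 3' on the gene's strand.
Kif17, chr4:138262154-138262183, plus strand: attccgtcctgTGACGTCAcggaggttgcc
Spag6l, chr16:16829354-16829383, minus strand: cactctggccgTGACGTCAcgacctttgct
Ift57, chr16:49699121-49699150, plus strand: ccagcatggcgTGACGTCAcgtaagaatcc
Izumo1, chr7:45621704-45621733, plus strand: ctgccaccctaTGACGTCAcgatgggatgg
Dnah6, chr6:73221788-73221817, minus strand: ctgacaactaaTGACGTCAaatactctggg
The kinesin Kif17 (-2.12), the axonemal Spag6l (-1.15), the transport gene Ift57 (-1.001) and the fusion gene Izumo1 (-1.07) fell, and the dynein Dnah6 (0.57) rose. A match is a description of the sequence and does not show that a factor binds there.

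Among genes of NMD itself the changes ran both ways. Of 20 NMD factors 9 rose, 7 fell and 4 did not pass the test, with a median of -0.03, and under library totals 14 rose and 2 fell. UPF1, the central helicase, had the largest rise: Upf1 (chromosome 8 from 70331525 to 70353278) had 8856, 7466 and 8163 in the cKO and 1811, 2107 and 1697 in the controls (log2 fold change 2.12, SE 0.10, adjusted p = 1.1e-06). The SMG1 kinase complex rose with it, with Smg9 (1.73), Smg8 (0.89) and Smg1 (0.82), where Smg9 had 12468, 10674 and 13844 in the cKO and 2219, 4789.5 and 4117 in the controls. Upf2 (1.19) and Mov10 (1.25) rose as well. Upf3a (-0.90) fell. Smg5 (-0.15), the most abundant factor, did not pass the test with edgeR, but did with DESeq2 (-0.22) and stood at 0.47 under library totals. In the exon junction complex, which marks spliced mRNA and is read by NMD, 11 of 14 genes rose, led by Srrm1 (1.29), Wibg (1.25), Magohb (1.23) and Casc3 (1.15), none past the fold threshold with TMM, and under library totals all 14 rose, 4 of them past it. The 3 that fell with TMM were cap-binding and accessory genes such as Ncbp2 (-0.29), which stood at 0.33 under library totals. Of 42 general decay enzymes 19 rose and 9 fell (35 and 2 under library totals), with the deadenylase Pan2 (2.17) and the decapping activator Patl1 (1.86) at the top and the exosome nuclease Dis3 (-1.46) at the bottom. Called higher were 2 of the 42 (8 under library totals), beside 14.8% of all genes tested with TMM.

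Of the RNA lists, snoRNA host genes had the highest median. Their spliced RNA holds short reading frames and is a known substrate of NMD. Of 20 hosts 14 rose, 11 of them past the fold threshold, 1 fell and 5 did not pass the test, with a median of 1.63. Beyond Snhg12, Snhg7 (3.20), 1500012F01Rik (3.17), Epb4.1l4aos (3.07), 1810032O08Rik (2.85) and Snhg5 (2.54) rose most. Snhg5 had 1458, 1596 and 1415 in the cKO and 278, 245 and 244 in the controls, Gas5, the most abundant, had 1099, 2025 and 2317 in the cKO and 1064, 911 and 629 in the controls (1.06), and Snhg7 had 233, 259 and 225 in the cKO and 21.2, 30.7 and 26.1 in the controls. Snhg9 fell (-1.85) from 33.7 to 9.27 normalized counts. Genes of SR proteins and of hnRNPs, many of which carry poison exons that send part of their own RNA to NMD, rose in 13 of 21 and 20 of 31 cases. Called higher were 1 of the 21 and 4 of the 31 (5 and 10 under library totals), beside 14.8% of all genes tested with TMM. Among SR proteins Srsf3 (1.62), Srsf7 (1.17) and Srsf4 (1.16) led, with Srsf3 at 5954, 5079 and 5815 in the cKO and 1811, 1900.5 and 1768 in the controls, and the kinase Srpk2, which phosphorylates them, fell by 2.49 from the highest level of the list. Among hnRNPs and related factors Hnrnpll was followed by Tial1 (2.32), Ptbp2 (1.71), Hnrnpl (1.57) and Hnrnpa2b1 (1.35). Tial1 had 5449, 6178 and 5448 in the cKO and 1139.6, 1124 and 1162 in the controls, and Ptbp2 had 6524, 4947 and 6663 in the cKO and 1772, 1961 and 1817 in the controls. The 6 that fell, among them Hnrnpab (-0.69) and Hnrnpf, fell by at most 0.69, and none fell under library totals. The summed hnRNP share was 0.486% to 0.515% of gene counts in the cKO and 0.234% to 0.247% in the controls, each group within a narrow range.

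Whether annotated NMD transcripts rose more than others was examined in the deposited transcript counts, of which 57133 transcripts had at least 20 expected counts in at least 3 libraries. Of all transcripts 10.5% were called higher and 10.3% lower. Among the 3724 transcripts annotated for NMD 9.64% were called higher and 7.04% lower, among 9890 with a retained intron 9.04% and 5.88%, and among 32076 coding transcripts 12.1% and 9.88%. The NMD class was not called higher more often than the background, although under library totals 22.7% of it was, against 21.4% of all transcripts. Its median log2 fold change was 0.18, against 0.06 for all transcripts. Within genes, the NMD transcript lay above the mean of the coding transcripts in 45.8% of 3627 cases, with a median difference of -0.0030 on the log2 scale. Transcripts of a gene share reads, so their expected counts are not independent. A read pair was divided equally among the transcripts it overlapped, which draws the values of a gene's transcripts together. A difference near 0 is thus partly built in, and these counts cannot show whether NMD transcripts rose apart from their genes. Among the called NMD transcripts with at least 100 normalized counts, that of Aldoa stood farthest above its gene's coding transcripts (2.04, a difference of 2.25; 5228 and 1274 normalized counts in cKO and control). Others were those of the RNA-binding proteins Khdrbs1 (3.11, a difference of 0.84), Pspc1 (3.84, 0.40), Tial1 (2.71, 0.33) and Srsf4 (1.56, 0.34), all named here after their values were seen.

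Stress genes rose in several groups. Of 30 stress response genes known as NMD targets 20 rose, 10 past the fold threshold, and 5 fell (23, 17 and 3 under library totals). Atf4, the translationally controlled activator of the integrated stress response, had 2271, 2475 and 2284 in the cKO and 759, 644 and 537 in the controls (1.86), and Atf3, with 933, 951 and 1356 in the cKO and 101, 75.4 and 100.3 in the controls, was the member with the largest rise (3.55). Ppp1r15a (2.64), Gadd45b (2.56) and Ddit3 (1.24) rose, while Herpud1 (-3.28), Slc7a11 (-2.05; -2.66 without cKO replicate 3) and Asns (-1.54), of which Herpud1 was the most abundant, fell past the threshold. Of 30 immediate early genes, which growth and stress signals induce within minutes, 19 were called higher, 1 was called lower and the median was 2.79. Junb had 1616, 1301 and 3384 in the cKO and 217, 183 and 209 in the controls, Zfp36 had 2678, 1711 and 4388 in the cKO and 249, 221 and 361 in the controls, and Egr1 had 2433, 2129.9 and 5169 in the cKO and 529.7, 420.2 and 412 in the controls. Myc (4.52; 3.93 without cKO replicate 3) had the largest rise, from 4.62 to 108 normalized counts. Egr3 (-1.64) and Jund (-1.07) and, with TMM alone, Klf4 (-0.73) and Nr4a1 (-0.73) fell (Klf4 -0.12 and Nr4a1 -0.11 under library totals), and Klf4 had the highest level in the controls. The summed share of these genes was 0.110%, 0.0961% and 0.163% in the cKO libraries and 0.0535%, 0.0561% and 0.0523% in the controls, highest in cKO replicate 3, the library with the highest macrophage, Leydig and Sertoli shares. The part of those cells in the rise was not tested.

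Genes of the p53 response rose in 19 of 25 cases, 9 past the fold threshold (21 and 15 under library totals), with Btg2 (3.06), Phlda3 (2.37; 3.32 without control replicate 2) and Pmaip1 (2.15) at the top, and Trp53 itself rose (1.38). Tnfrsf10b (-1.36) fell with TMM and under library totals had -0.72, and Mdm2, the most abundant, fell by 0.30 with TMM and stood at 0.32 under library totals. Of 33 apoptosis genes 24 rose and 3 fell. The effector Bak1, with 2694, 3223 and 2754 in the cKO and 494, 527 and 489 in the controls (2.52), was the most abundant of those called higher, and the initiator caspase Casp8 (2.001), with 32.3 normalized counts in the controls, rose from a low level. Birc3 (3.51) and Bcl2 (3.12; 2.08 without cKO replicate 3), which hold apoptosis back, rose too, and Mlkl (-2.96), the executor of necroptosis, fell past the threshold. The summed apoptosis share was 0.111% to 0.122% in the cKO and 0.0505% to 0.0568% in the controls. Among heat shock genes Dnajb8 (-4.95), Hspa1l (-3.79), Dnajb7 (-2.73) and Bag1 (-2.50) had the largest falls, and Hspb8 (4.04; 5.56 without control replicate 1), Hspa1b (1.73) and Hspa8 (1.41) the largest rises, in all 17 lower and 11 higher of 31 (8 and 20 under library totals). Hsp90aa1, the most abundant, fell by 0.45 and stood at 0.17 under library totals. Of 29 genes of the unfolded protein response 16 rose and 7 fell, with Eif2ak3 (1.94), Syvn1 (1.94) and Xbp1 (1.83) called higher and Herpud1 called lower. The chaperone Hspa5 rose by 0.51.

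Most genes of 3 immune lists and of the lysosome list rose, with medians of 2.84 to 2.93 for the immune lists and 1.82 for the lysosome list, against 3.34 for macrophage genes. Of 31 tested interferon stimulated genes 23 were called higher and none was called lower, with a median of 2.84. Irf7 had 64.9, 28.0 and 106 in the cKO and 1.18, 3.83 and 7.82 in the controls, and Oas1a, with the largest rise (4.51), went from 1.66 to 40.6. Of the RNA sensors Ifih1 (2.84) rose, Ddx58 (0.27; 0.88 under library totals) did not pass the test, and Dhx58, the most abundant member, fell by 0.90 with TMM and stood at -0.29 under library totals. Of 29 complement and phagocyte genes 23 were called higher and Msr1 was called lower (-1.56). C1qa had 1218, 910.3 and 1566 in the cKO and 68.4, 47.3 and 136 in the controls, C1qc (4.19) had the largest rise, and Fcgr3, the most abundant, did not pass the test (0.41). Of 22 antigen presentation genes 16 were called higher, with Ciita (4.72) the highest and Nlrc5 (-1.17) lower with TMM (-0.55 under library totals). The peptide transporter Tap1 had 79.2, 50.7 and 161 in the cKO and 5.9, 3.83 and 5.21 in the controls, and Cd74 had 1637, 3432 and 6409 in the cKO and 222, 119 and 227 in the controls. Of 35 lysosome genes 28 rose and 2 fell. Ctsb had 3036, 2241 and 3672 in the cKO and 335, 259 and 335 in the controls, Ctss (4.19) had the largest rise, and Ppt1 fell by 2.06, as did Lamp1, the most abundant, by 0.49 with TMM (0.13 under library totals).

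These 4 lists were read beside the somatic markers. The summed share of the antigen presentation genes was 0.0327%, 0.0433% and 0.0723% in the cKO libraries and 0.0115%, 0.0105% and 0.00994% in the controls, and that of the complement and phagocyte genes 0.0524%, 0.0377% and 0.0795% in the cKO libraries and 0.00944%, 0.0159% and 0.0154% in the controls, so that in both cKO replicate 3 was highest, as for macrophage genes. The complement list shares 6 genes with the macrophage list. The interferon share was 0.0162%, 0.0133% and 0.0204% in the cKO libraries and 0.00819%, 0.00951% and 0.00778% in the controls, and the lysosome share 0.159%, 0.140% and 0.176% in the cKO libraries and 0.0898%, 0.0888% and 0.0840% in the controls, and in both cKO replicate 3 was again the highest and replicate 2 the lowest cKO library. All 14 macrophage markers were detected, and Ptprc, the pan-leukocyte marker, had 376, 232 and 773 in the cKO and 54.3, 56.2 and 65.2 in the controls. The part of macrophages and other somatic cells in these rises was not tested.

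**Figure D3:**
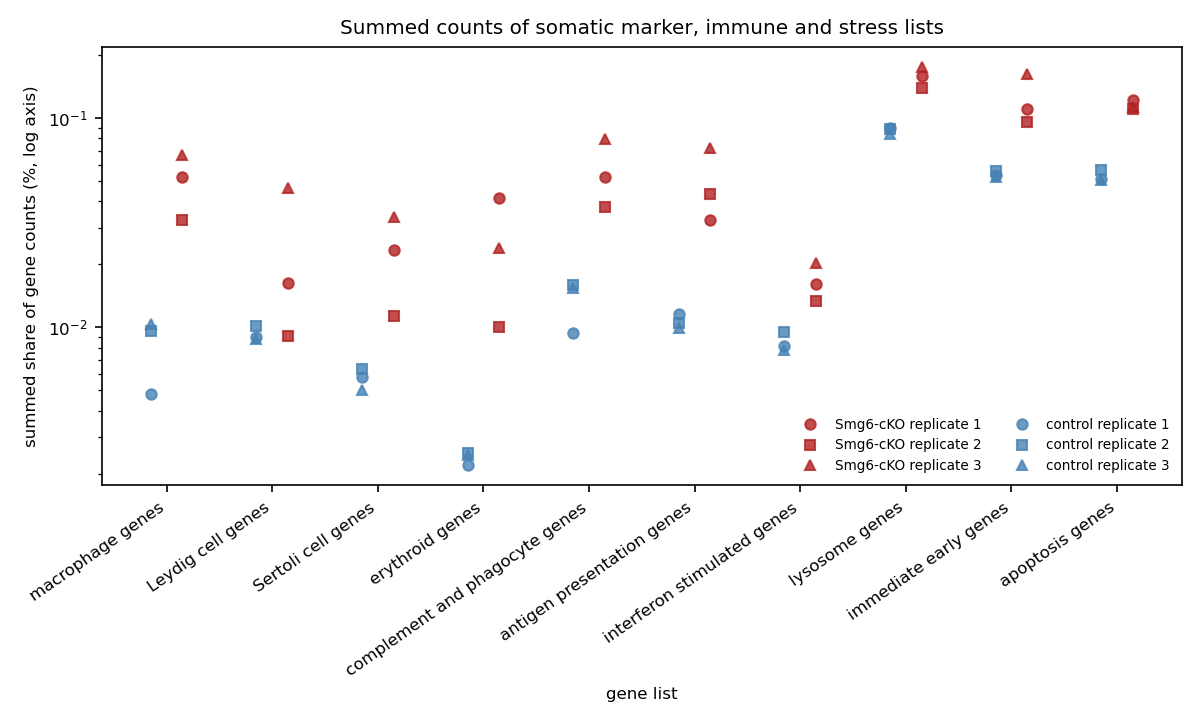
Summed counts of somatic marker, immune and stress lists as a share of all gene counts (%, log axis), with a symbol for each of the 3 Smg6-cKO and 3 control libraries. Macrophage genes take 0.0327% to 0.0669% in the cKO and 0.00479% to 0.0104% in the controls, the summed share of Leydig cell genes overlaps between genotypes, and apoptosis genes lie within 0.111% to 0.122% in the cKO and 0.0505% to 0.0568% in the controls.

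**Figure D4:**
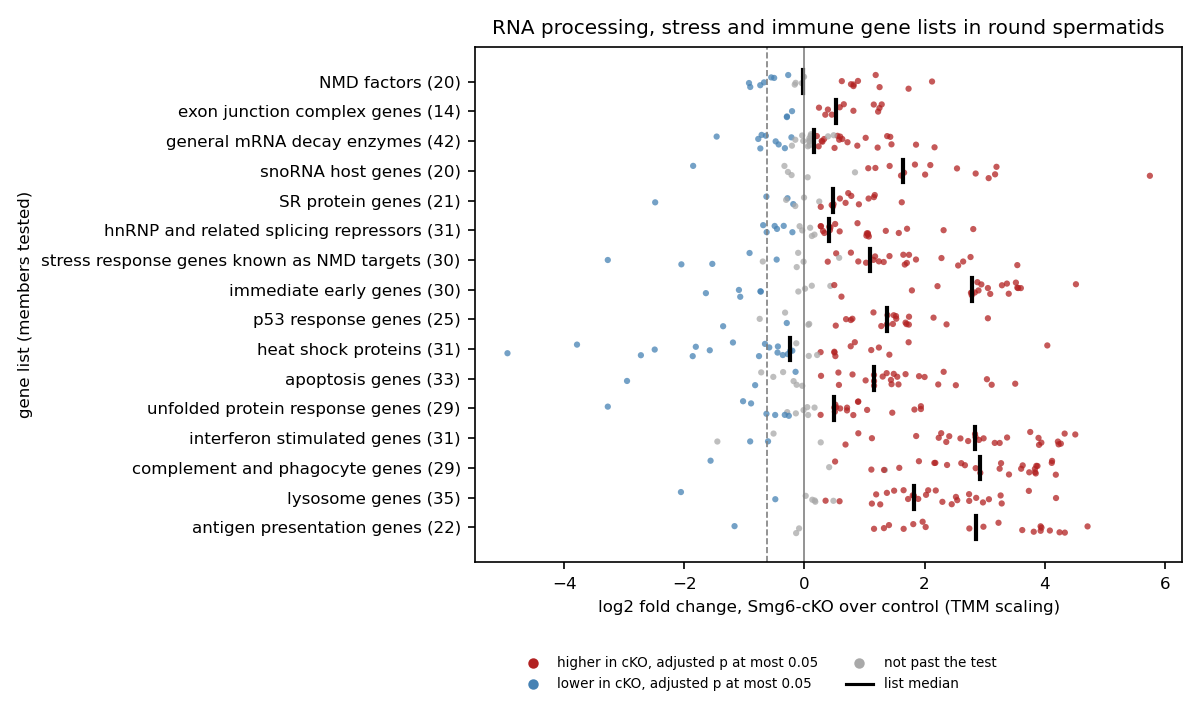
Log2 fold changes (Smg6-cKO over control, TMM) of the members of the RNA processing, stress and immune lists, each point a gene coloured by direction where the adjusted p was at most 0.05, with a black bar at the median and a dashed line where 0 lies under library totals. Medians run from -0.24 for heat shock proteins and -0.03 for NMD factors to 1.63 for snoRNA host genes and 2.93 for complement and phagocyte genes.

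With TMM most ribosomal protein and respiratory chain genes fell, while their X-linked members rose. Of 84 ribosomal protein genes 69 fell and 7 rose, with a median of -0.65, and under library totals 21 rose and 26 fell. Rplp0, the most abundant, had 19549, 15035 and 19815 in the cKO and 25557, 30415 and 33628 in the controls and fell by 0.72 with TMM and stood at -0.10 under library totals. Members called higher were Rps4x, Rpl10, Rpl36a and Rpl39. These 4 are the X-linked members of the list. Rps4x had 703, 432 and 1408 in the cKO and 77.9, 58.8 and 93.8 in the controls (3.46), Rpl10 had 1235, 1014 and 1993 in the cKO and 339.7, 272 and 242 in the controls (2.31), Rpl36a had 395, 404 and 485 in the cKO and 114, 66.4 and 88.6 in the controls (2.25), and Rpl39 had 205, 191 and 434 in the cKO and 73.1, 56.2 and 50.8 in the controls. The cKO libraries lay above every control library in each, and in Rps4x, Rpl10 and Rpl39 replicate 3 was the highest and replicate 2 the lowest, the order of the Leydig, macrophage and Sertoli shares. Their autosomal paralogs made in male germ cells fell: Rpl10l had 3669, 2532 and 3922 in the cKO and 9227, 8831 and 9245 in the controls (-1.43) and Rpl39l had 6086, 5203 and 6115 in the cKO and 11650.4, 11031 and 11611 in the controls (-0.98). Paralogs of such likeness can share reads. The 80 autosomal members had a median of -0.68, and 3 of them rose. Of 73 respiratory chain genes 48 fell and 8 rose (31 rose and 16 fell under library totals), and the 3 X-linked members were again among those that rose, with Cox7b (2.41), Ndufb11 (1.06) and Ndufa1 (0.69). The adjusted p of Ndufa1 rose to 0.055 without cKO replicate 3, 0.067 without control replicate 2 and 0.075 without control replicate 3, with log2 fold changes of 0.58, 0.65 and 0.55. Cox7b was the called one on the higher side, and Ndufa13 (-1.99) and Atp5g1 (-1.51) were called lower (5 higher and 0 lower under library totals). Atp5b, the most abundant, fell by 0.37 with TMM and stood at 0.24 under library totals.

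In the proteasome 20 of 38 genes fell and 9 rose, but under library totals 22 rose and 5 fell. The core particle subunit Psma6 fell past the threshold (-2.27), and the interferon-inducible activators Psme1 (1.98) and Psme2 (1.57) rose past it. Of 25 cholesterol synthesis genes 10 rose and 7 fell, beside 38.4% and 34.3% of all genes tested. Their median was 0.17, and their summed shares overlapped, with 0.130% to 0.140% in the cKO and 0.131% to 0.134% in the controls. The fallen ones included the early enzymes Fdps (-1.21) and Fdft1 (-0.91) and Cyp51 (-1.51), of which Fdft1 was the most abundant, and Mvd (1.98) and Tm7sf2 (1.57) rose. The list as a whole thus did not rise. The steroid-making Leydig cells, most of whose markers were higher in the cKO, use the same pathway, and their part in the changes of single genes was not tested.

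Genes of meiosis and of earlier germ cells were measured in the same fraction. Of 26 recombination genes 15 rose and 3 fell (5 fell without cKO replicate 2 and 6 with DESeq2), none past the fold threshold with TMM, with Ccnb1ip1 (1.38), Prdm9 (1.28) and Mlh3 (1.11) at the top and Tex15 (-1.01), the most abundant, at the bottom. Under library totals 19 rose, 8 of them past the fold threshold, and 1 fell. Of 15 synaptonemal complex and cohesin genes 7 rose and 6 fell. Rad21l (1.78; 2.44 without control replicate 1), Hormad2 (1.31) and Sycp2 (0.98) rose, and Syce2 (-2.92), Rec8 (-1.69) and Syce3 (-1.66) fell past the threshold, with Syce2 at 1300.0, 1441 and 997 in the cKO and 8812, 8343 and 11149.7 in the controls. Stag3, the most abundant member, did not pass the test (0.10; 0.72 under library totals). Of 28 cyclins and kinases of the divisions 15 rose and 9 fell, with Fbxo5 (1.79), Ccnb3 (1.53) and Cdk2 (1.46) at the top and Wee1 (-0.92) at the bottom, and under library totals 22 rose and 1 fell. The division cyclins Ccnb1 (-0.40) and Ccnb2 (-0.50, the most abundant) fell with TMM and stood at 0.22 and 0.12 under library totals. Of 28 PIWI and piRNA factors 14 rose and 9 fell (20 and 3 under library totals), and those that rose were 8 without cKO replicate 1 and 9 without control replicate 1 or control replicate 3. Piwil1, the main PIWI protein of these cells, had 8957, 4712 and 7053 in the cKO and 3290.1, 5069 and 3976 in the controls (0.75). Its groups overlapped, and its adjusted p rose to 0.078 without cKO replicate 1, 0.069 without control replicate 1 and 0.057 without control replicate 3, with log2 fold changes of 0.54, 0.61 and 0.73, and to 0.061 with the replicate number as a block (0.72). Pnldc1 (1.70), the trimmer of piRNA ends, and Tdrd5 (1.54) rose past the threshold, Gtsf1 (-1.38) and Mael (-0.80) fell, of which Mael was the most abundant, and Kif17 is the called lower member. Of 16 tested spermatogonial genes 11 rose and 2 fell, with Stra8 (1.92) and Sall4 (1.82) called higher from 154 and 55.9 normalized counts in the controls. Dmrtb1, by far the most abundant, fell by 0.35 with TMM and stood at 0.27 under library totals, and the low Nanos3 (-1.36) fell too with TMM but did not pass the test under library totals (-0.74).

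Genes of the X chromosome, which is silenced in meiosis and stays largely repressed in round spermatids apart from a set of spermatid genes, stood apart from the autosomes. Of 776 X-linked genes tested 29.3% were called higher and 6.83% lower, with a median of 0.76. On the 19 autosomes the share called higher ran from 9.77% to 16.6%, the share called lower from 9.39% to 15.2% and the median from -0.11 to 0.22. The X-linked genes with the highest cKO levels among those called higher were broadly expressed ones, chosen here after their values were seen: the actin-binding Tmsb4x (1.56), the histone chaperone Rbbp7 (1.94), Rpl10, the RNA helicase Ddx3x (1.99) and the deacetylase Hdac6 (1.57). Ddx3x had 1248, 963 and 1761 in the cKO and 342, 317 and 340.1 in the controls, and Rbbp7 had 1705, 1047 and 2143 in the cKO and 478, 355 and 440.5 in the controls. In both, cKO replicate 3 was the highest and replicate 2 the lowest cKO library, as for the Leydig, macrophage and Sertoli shares, and this order held in 121 of the 227 X-linked genes called higher (53.3%), beside 49.7% of all genes called higher. Atrx, a chromatin remodeler, rose too (1.94). X-linked genes called lower included the spermatid genes Akap4 (19632, 19379 and 18956 in the cKO and 158417, 141695 and 179490.4 in the controls) and H2afb1, and Tspan6 (-3.31). All 5 called members of the Xlr family were higher, among them Xlr3a (2.26) and Xlr4c (1.52) from 14.6 and 33.1 normalized counts in the controls, and its near-identical copies may share reads. The part of somatic cells, in which many X-linked genes are active, was not tested. Without cKO replicate 3 the number of X-linked genes called higher was 207.

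**Figure D5:**
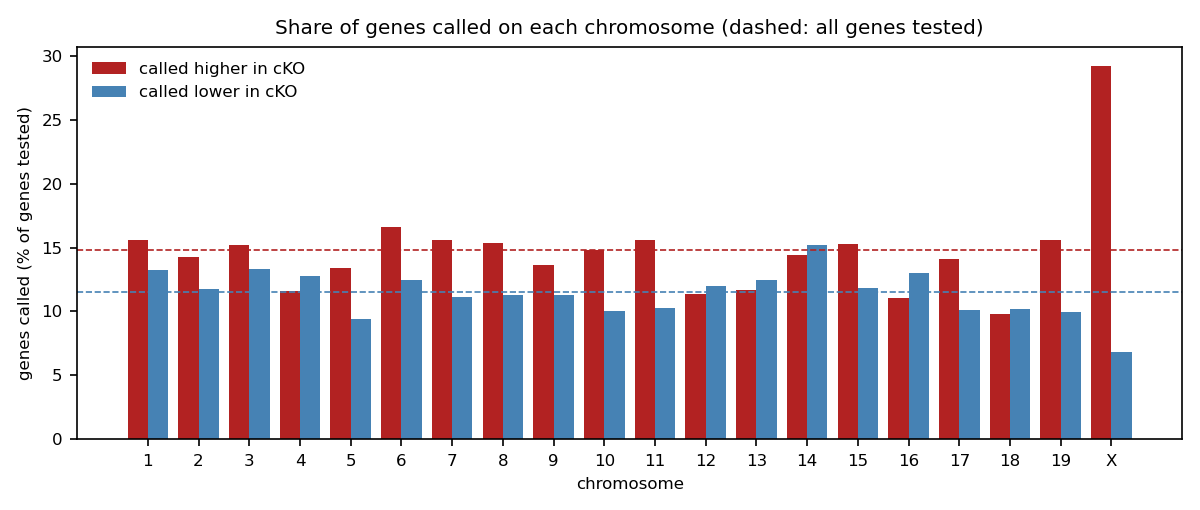
Share of tested genes called higher (red) and lower (blue) in Smg6-cKO round spermatids on each chromosome, with dashed lines at the shares over all genes (14.8% and 11.6%). The X chromosome has 29.3% of its genes called higher, above the autosomal range of 9.77% to 16.6%, and 6.83% called lower.

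Gene structure, taken from GENCODE vM21 (GRCm38), went with direction. A long 3'UTR is a known trigger of NMD. Of coding genes with a 3'UTR under 350 nt 16.1% were called lower and 11.9% higher, of those with 350 to 1500 nt 7.16% and 17.1%, and of those with over 1500 nt 8.05% and 16.4%. The medians were -0.19, 0.34 and 0.28 (0.43, 0.96 and 0.90 under library totals). The longest class was thus no higher than the middle one, and the genes called lower had the shortest 3'UTRs, with a median of 463 nt, against 940.0 nt for genes called higher and 866 nt for the rest. Of 496 coding genes with 1 exon 22.4% were called lower, and of 3593 with over 15 exons 6.99%. Long noncoding RNAs fell more often than coding genes: 34.0% of 547 lincRNA genes and 35.7% of 339 antisense genes were called lower, against 9.93% of 15869 coding genes, and 5.67% and 4.72% were called higher. Gm16973 (14099.9, 15742 and 15487 in the cKO and 539, 576 and 513 in the controls; chromosome 14 from 56696280 to 56701268) and Snhg12 were among the lincRNA genes called higher. The authors counted reads by strand, so antisense genes were counted apart from their partners.

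Of 211 families of genes that share the letters of their symbol and had at least 10 tested members, those with the lowest medians were the kallikreins (Klk, -2.95), the Cypt genes (-2.38) and the Spata genes (-1.95), of which 8 of 14, 10 of 11 and 18 of 28 were called lower. All 3 medians stayed below 0 under library totals. The kallikreins were not of a kind: Klk1b8 had 136, 76.0 and 146 in the cKO and 3584, 2345 and 3379 in the controls (-4.70), while Klk1b21 had 117, 41.9 and 379 in the cKO and 9.44, 10.2 and 11.7 in the controls (4.09; 2.91 without cKO replicate 3), and these genes are close copies that can share reads. The most abundant Spata gene, Spata20, had 19617, 23282 and 20403 in the cKO and 95586, 98159 and 112531 in the controls (-2.27), and Spata32 (-4.34) had the largest fall. Spata5l1 (2.15; 2.79 without control replicate 1) and Spata13 (1.97) were the 2 called higher. At the other end were interferon-inducible Ifi genes (2.51), Toll-like receptors (Tlr, 2.41), chemokines (Ccl, 2.15) and interferon regulatory factors (Irf, 2.08), of which 7 of 10, 8 of 10, 10 of 18 and 8 of 12 were called higher. The macrophage markers, 13 of 14 of them higher with a median of 3.34, moved with these families, and their part was not tested. Among the Mcm genes, which load and form the replicative helicase, 9 of 10 rose, none past the fold threshold with TMM, where the median was 1.07 (1.69 under library totals), with Mcm2 (1.48) at the top, and Mcm7, with 10545 normalized counts in the controls, did not pass the test (-0.14), though it did with DESeq2 (-0.21) and stood at 0.48 under library totals.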

How the data were processed

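Poly(A) RNA of round spermatids was sequenced by the authors as stranded libraries, 3 Smg6-cKO and 3 controls. The raw counts per gene analysed here were made by the authors with cutadapt, STAR against GRCm38 and TEtranscripts in reverse-stranded mode, and were deposited unnormalized, with transposable element rows that are not analysed here. The expected counts per transcript were made by the authors with featureCounts, which divided a read pair equally among the transcripts it overlapped, and were deposited as fractions. They were rounded to whole numbers here before testing. Column samples were assigned by name. The study's own gene-level count table was not used here.

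A gene was tested if 3 or more libraries held at least 10 counts, and a transcript if they held at least 20, with edgeR 4.0.16 (R 4.3.3; TMM, glmQLFit and glmQLFTest, two-sided, Benjamini-Hochberg over the whole table). The script was tested on simulated data. Normalized counts are counts divided by the TMM-scaled library size and multiplied by the mean of those sizes. Depth was 40237647 to 45391308 gene counts per library, so for abundant genes counting error was small beside the spread between libraries. For genes with few counts in a group, such as Irf7 and Myc in the controls, it was not, and their fold changes are less certain. p-values measure the spread between these samples. The members and the 47 lists (1187 entries, 16 of them not found) were chosen with earlier results of these data known, and apart from exact permutation tests of summed shares no list was tested as a set. Named genes were the 12 highest and 12 lowest called log2 fold changes among genes with a mean of at least 100 and no overlap between genotypes, the 8 largest absolute rises and the 8 largest falls, the members of each list with the largest changes, the highest counts or a change against the rest, and genes the study followed. Alternatives were DESeq2 1.42.0, library totals or median-ratio factors in place of TMM, no filter, transcripts with at least 10 counts, each library left out in turn, and the replicate number as a block. Gene rows with counts identical to another row cannot be told apart. The results of some genes are not reported here.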

Additional observations from a re-analysis of the deposited data

How the results depend on the processing

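Scaling by library totals moved most counts, with a median log2 fold change higher by 0.62. The genes called were then 4989 higher and 1082 lower. Among list members 18 spermiogenesis genes were called higher and 52 lower, 33 and 2 meiotic, 63 and 2 RNA processing, and 22 and 2 core machinery genes, while 6 stress and immune genes and 7 marker genes were called lower. There were 357 X-linked genes called higher, 392 coding genes with a short 3'UTR, 187 lincRNA and antisense genes and 25 genes with the CRE palindrome called lower, and 15 families with a median below 0. NMD transcripts called were 844 higher and 146 lower, those with a retained intron 2105 and 313, and coding transcripts 7435 and 1786. List medians that turned positive were axonemal dynein and radial spoke genes (0.56), intraflagellar transport genes (0.48), CatSper and sperm ion transport genes (0.28), translational RNA-binding proteins (0.081), spermatocyte markers (0.43), NMD factors (0.60), heat shock proteins (0.38), nuclear respiratory chain genes (0.14), proteasome subunit genes (0.36) and endothelial genes (0.26). Named genes that turned positive were Acrbp (0.082), Adam2 (0.60), Adam3 (0.31), Aldoa (0.16), Atp5b (0.24), Catsper4 (0.13), Ccnb1 (0.22), Ccnb2 (0.12), Clgn (0.43), Dmrtb1 (0.27), Hsp90aa1 (0.17), Hspa2 (0.17), Izumo4 (0.58), Lamp1 (0.13), Mcm7 (0.48), Mdm2 (0.32), Ncbp2 (0.33), Pabpc1 (0.046), Ppia (0.54), Rpl19 (0.080), Smg5 (0.47), Smg6 (0.62), Spink2 (0.039) and Zfy2 (0.078). Of 304 named genes 259 kept their direction and side of the threshold in every alternative run.

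With each library left out in turn, 2388 to 2903 genes were called higher and 1913 to 2259 lower. Meiotic genes called higher ranged from 4 (without cKO replicate 1) to 10 and were 5 with DESeq2. Core machinery genes called lower ranged from 3 (without control replicate 3) to 5. The cKO to control ratio of Leydig cell genes ranged from 1.36 (without cKO replicate 3) to 3.35 and that of T and NK cell genes from 0.702 (without cKO replicate 3) to 1.39, and was 0.958 without control replicate 1. The median of peritubular myoid genes was -0.00743 without control replicate 2 and 0.207 without control replicate 1. Cholesterol synthesis genes called higher fell from 5 to 2 without cKO replicate 3 or control replicate 3, and RNA-binding proteins called higher from 2 to 0 without cKO replicates 1 or 2 or control replicates 2 or 3. Under library totals the members called higher went from 2 to 7 for spermatogonial genes, from 2 to 6 for PIWI and piRNA factors, from 3 to 7 for unfolded protein response genes, from 4 to 10 for Sertoli cell genes and from 2 to 5 for synaptonemal complex genes, RNA-binding proteins and NMD factors. They also went from 2 to 8 for general decay enzymes and from 2 to 7 for cyclins and kinases of the divisions. For hnRNPs they went from 4 to 10 and for SR proteins from 1 to 5. Other list counts of 1 or 2 members also moved when a library was left out. The causes were not tested. In the fit with a replicate block 2521 genes were called higher and 2038 lower. Same-numbered libraries had correlations of their deviations of -0.158, -0.179 and 0.108, and 2 of the 3 cKO libraries correlated better with another number. These values show no pairing, but with 3 libraries a group they cannot exclude one, and the labels give only the number. The 3 libraries a group limit what can be said of single genes with few counts.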
